A study of Homo sapiens with 8 samples.

Results

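Antisense long noncoding RNAs (lncRNAs) named for the gene they lie against were followed in human skin fibroblasts treated with transforming growth factor beta (TGFB, named TGFB1 in the treatment protocol), celastrol or both. The 631 genes described are every row of the deposited table with the biotype lncRNA and a symbol ending in -AS and a number, among 24598 genes in all and 5231 lncRNA genes. The gene that the name gives, called the partner here, had a row for 570 of them, which made 557 different partners because 12 partners had more than 1 antisense gene. Of these pairs, 565 had a protein coding partner, and 61 antisense genes had no partner row. The study treated CCD-1077Sk cells, a line of fibroblasts from normal human skin, for 6 h and asked how celastrol, a triterpenoid from the plant Tripterygium wilfordii, alters expression driven by TGFB, a cytokine that turns fibroblasts toward matrix production. Total RNA was sequenced in 4 groups of 2 libraries. The vehicle group received BSA, citric acid and DMSO; the TGFB group received TGFB and DMSO; the celastrol group received BSA, citric acid and celastrol at 500 nM; and the last group received TGFB and celastrol at 500 nM. The cells are 1 line from 1 source, and the TGFB dose is not stated in the labels. Nothing in the labels tells whether both libraries of a group were grown as separate cultures, and the p-values therefore rest on a spread that may be technical.

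Antisense lncRNAs are transcribed from the strand opposite to another gene, often from a start site close to that gene's own promoter. They can act in cis, for example by recruiting chromatin complexes or by pairing with the sense transcript, or they can arise as by-products of an active promoter, and most are present at low levels and turned over quickly in the nucleus. In fibroblasts, several are named for genes of the myofibroblast programme, such as ACTA2, ELN, LOXL1, HAS2 and TGFB2.

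The names fitted the positions with few exceptions: 568 pairs lay on opposite strands, and only MYCBP2-AS2 and TUB-AS1 lay on the strand of their partner. In 381 pairs the exons of the antisense gene and the partner overlapped, by a median of 275 bases, and in 118 pairs the gene spans overlapped without shared exon bases. A further 40 pairs did not overlap but started within 2000 bases of each other, 5 lay farther apart, and in 26 overlapping pairs the exons were not checked because a gene was not found in the GENCODE v29 annotation. Counting all classes, 233 opposite-strand pairs had starts within 2000 bases. The sources used here do not state whether the authors' counting used strand, so in overlapping pairs reads of the antisense gene and of its partner cannot be told apart, and each value below is that of the gene row as deposited. The exons of 175 of 532 antisense genes looked up by name also overlapped those of a gene other than the partner, and such genes with a row are described with the pairs below.

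Promoter windows, from 250 bases before to 50 after the RefSeq start, are shown for 3 pairs whose genes were both called higher with celastrol added to TGFB and whose starts are 120, 549 and 839 bases apart in the table; they were chosen after the values were seen. RefSeq (GRCh38.p14) windows matched 435 of 631 antisense genes and 451 of 557 partners. Windows are written 5′ to 3′ on the strand of the gene, and capitals mark matches on either strand to the letters searched. These were the heat shock element cores GAANNTTC and TTCNNGAA, the AP-1 site TGANTCA, the antioxidant response element core TGACNNNGC, the SMAD palindrome GTCTAGAC, the SRF site known as the CArG box, the NRF1 site known from its GC-rich palindrome, the CCAAT box and the TATA box TATAAA. RASAL2-AS1 (chr1:178093944-178094243, minus strand) and RASAL2 (chr1:178093854-178094153, plus strand) share 210 bases of their windows; CAVIN2-AS1 is at chr2:191846238-191846537 (plus strand) and CAVIN2 at chr2:191847039-191847338 (minus strand), and ZNF436-AS1 is at chr1:23368721-23369020 (plus strand) and ZNF436 at chr1:23369787-23370086 (minus strand).
RASAL2-AS1: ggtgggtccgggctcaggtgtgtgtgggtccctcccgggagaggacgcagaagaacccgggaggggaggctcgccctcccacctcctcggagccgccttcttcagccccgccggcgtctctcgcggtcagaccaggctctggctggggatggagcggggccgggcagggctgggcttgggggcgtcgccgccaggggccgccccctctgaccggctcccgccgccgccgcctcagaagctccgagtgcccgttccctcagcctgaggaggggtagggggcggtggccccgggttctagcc
RASAL2: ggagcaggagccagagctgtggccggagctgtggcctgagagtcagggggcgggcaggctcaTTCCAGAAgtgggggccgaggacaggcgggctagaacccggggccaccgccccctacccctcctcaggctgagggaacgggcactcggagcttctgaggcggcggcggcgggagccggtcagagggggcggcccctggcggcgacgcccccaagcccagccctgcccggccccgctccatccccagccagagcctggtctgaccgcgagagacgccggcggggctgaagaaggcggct
CAVIN2-AS1: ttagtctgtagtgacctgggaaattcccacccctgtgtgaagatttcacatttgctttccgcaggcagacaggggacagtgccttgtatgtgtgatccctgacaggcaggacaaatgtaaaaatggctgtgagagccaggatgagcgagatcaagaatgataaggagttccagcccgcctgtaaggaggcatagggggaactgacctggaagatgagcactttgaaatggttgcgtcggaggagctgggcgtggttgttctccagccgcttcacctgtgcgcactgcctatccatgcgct
CAVIN2: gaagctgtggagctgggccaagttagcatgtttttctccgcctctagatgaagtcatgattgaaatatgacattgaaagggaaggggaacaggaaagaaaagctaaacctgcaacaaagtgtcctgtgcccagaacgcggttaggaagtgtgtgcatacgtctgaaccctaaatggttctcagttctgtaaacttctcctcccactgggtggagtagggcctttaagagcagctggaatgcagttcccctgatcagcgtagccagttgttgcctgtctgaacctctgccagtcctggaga
ZNF436-AS1: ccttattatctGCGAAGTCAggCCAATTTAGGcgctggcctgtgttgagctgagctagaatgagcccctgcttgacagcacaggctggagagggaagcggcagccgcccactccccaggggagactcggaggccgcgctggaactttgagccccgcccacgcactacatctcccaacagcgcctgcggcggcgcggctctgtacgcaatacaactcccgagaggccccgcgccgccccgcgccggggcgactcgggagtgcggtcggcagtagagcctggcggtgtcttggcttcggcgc
ZNF436: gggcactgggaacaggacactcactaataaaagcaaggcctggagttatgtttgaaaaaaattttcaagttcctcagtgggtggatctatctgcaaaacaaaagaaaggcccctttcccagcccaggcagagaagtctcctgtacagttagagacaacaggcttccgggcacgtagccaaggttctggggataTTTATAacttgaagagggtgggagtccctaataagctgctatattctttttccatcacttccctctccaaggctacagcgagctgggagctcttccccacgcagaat

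In these windows the RASAL2 promoter held a heat shock element core, which binds heat shock factors, 188 bases before its start and outside the bases shared with RASAL2-AS1. The ZNF436-AS1 window held an antioxidant response element core 239 bases before the start and a CArG box that overlaps a CCAAT box 228 bases before it, and the ZNF436 window held a TATA box 57 bases before the start. None of the letters searched was found in the windows of RASAL2-AS1, CAVIN2-AS1 and CAVIN2. Over all 435 antisense promoters, the heat shock element core was found in 49 (11.3%), against 13.7% of 27305 RefSeq promoters of the same length, and the antioxidant response element core in 57 (13.1%) against 13.6%. Among antisense genes higher with celastrol in TGFB-treated cells, 13% of 269 promoters held the heat shock element core and 10.8% the antioxidant response element core, and among those not called or not tested the shares were 7.8% and 17.0% of 141, while among those lower they were 12 and 16.0% of 25. For the other letters the shares in antisense promoters and in all promoters were 5.75% and 7.76% for AP-1, 7.82% and 6.28% for NRF1, 0.69% and 1.29% for the CArG box, 32.0% and 35.7% for the CCAAT box and 7.36% and 12% for the TATA box; the SMAD palindrome was in none of the 435 and in 0.201% of all. A match says only that the letters are present.

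The libraries held between 20716713 and 42518360 reads assigned to genes, as estimated from the step between low values, and a count of 0 allows up to 3 reads, or 1.80 to 4.24 normalized reads. The limit is one of counting error alone, because the labels name no molecular identifiers and copies of 1 molecule may be counted more than once. All 10 fibroblast markers checked were present at summed levels of 382329 to 674720 normalized reads; KRT5, KRT14, KRT1, CDH5, TYR, DCT and CD3E had no row. Summed levels of the other marker lists differed between the groups. The 4 of 5 endothelial markers with a row summed to between 52.7 and 98.9 in the 4 libraries without celastrol and between 354 and 465 in the 4 with it. The 3 of 5 melanocyte markers with a row summed to 1034 to 1074 with vehicle, 222 to 236 with TGFB, 1312 to 1365 with celastrol and 1270.0 to 1312 with both, and the 3 of 6 keratinocyte markers to 2032 to 2097, 4771 to 4999.8, 2072 to 2381 and 2205 to 2284. The 5 smooth muscle and pericyte markers summed to 5434 to 6309, 8846 to 9022, 5681 to 6748 and 5476 to 6682, and the 4 of 5 immune markers to 249 to 370.4, 312 to 324, 399 to 492 and 382 to 529.5. Whether these levels have a part in the results below was not tested. In bulk RNA, fewer cells expressing a gene and less RNA per cell cannot be told apart.

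Celastrol libraries showed nearly every antisense gene in the table, whereas libraries without celastrol did not. Above the level of 3 reads stood 453 and 488 of the 631 with vehicle, 432 and 416 with TGFB, 625 and 617 with celastrol and 627 and 614 with both agents. The groups with and without celastrol did not overlap, and depth did not order them: the deepest library was vehicle 2, and celastrol 2 had fewer reads than TGFB 2. Other genes moved the same way, from 55.3 to 70.5% of the other lncRNA genes above 3 reads without celastrol to 91.6 to 96.9% with it, and from 88.7 to 91.9% of protein coding genes to 98.8 to 99.6%. Antisense transcripts made up 0.265 and 0.267% of all normalized reads with vehicle, 0.199 and 0.197% with TGFB, 0.315 and 0.308% with celastrol and 0.319 and 0.312% with both. The share was lowest in both TGFB libraries and highest in the celastrol libraries. A gene enters the table only if some library held at least 11 estimated reads, so a gene may be listed because of its celastrol libraries alone. Of the 631, 576 reached 10 normalized reads in 2 or more libraries and were tested, 205 of them only because of the celastrol libraries, and 55 were not tested; 221 had a mean of at least 50.

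**Figure D1:**
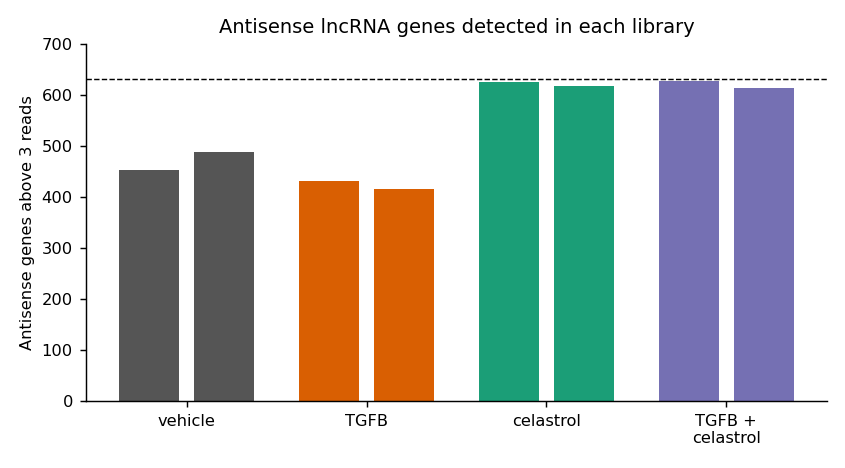
Number of antisense lncRNA genes (of 631, dashed line) above the level of 3 reads, for each of the 8 libraries, with the 2 libraries of a group side by side. The celastrol libraries stand between 614 and 627 and the libraries without celastrol between 416 and 488.

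Antisense genes were far below their partners. Per kilobase of exon, over the 543 pairs with both genes in the annotation, the median antisense level was 7.92 normalized reads with vehicle, 6.01 with TGFB, 19.6 with celastrol and 19.7 with both. The median partner level per kilobase was 149, 143, 153 and 149 in the same order. The antisense gene was above its partner per kilobase in 71 of the 543 pairs with vehicle, 68 with TGFB, 93 with celastrol and 90 with both.

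The most abundant was MAGI2-AS3, which starts beside MAGI2, a synaptic and junctional scaffold gene, with 6599.7 and 6846 normalized reads with vehicle, 4110.0 and 4217 with TGFB, 7251 and 6852 with celastrol and 7154 and 7458 with both agents. It was lowest in both TGFB libraries, with a log2 change of -0.69 (SE 0.06, adjusted p = 6.30e-05) against vehicle and 0.81 (SE 0.06, adjusted p = 5.86e-06) when celastrol was added to TGFB; MAGI2 changed by -0.88 and 1.76. GABPB1-AS1, against the gene of a subunit of the transcription factor GABP, read 1599.6 and 1820.5 normalized reads with vehicle, 1345 and 1300.3 with TGFB, 3526 and 4211 with celastrol and 4040.1 and 3894 with both agents. Both genes of that pair stood above all other libraries in the 4 celastrol libraries: with TGFB present, celastrol raised GABPB1-AS1 by 1.58 and GABPB1 by 1.56 on the log2 scale. TRHDE-AS1, against the gene of an ectoenzyme that degrades thyrotropin-releasing hormone, averaged 3815 with vehicle, 4130.3 with TGFB, 1523 with celastrol and 1464 with both and went the other way, with -1.49 (SE 0.07, adjusted p = 1.24e-06) for celastrol with TGFB, while TRHDE changed by -0.36. OIP5-AS1, also known as Cyrano, averaged 3680.1 with vehicle, 3334 with TGFB, 2422 with celastrol and 2424 with both and fell by 0.46 with celastrol in TGFB-treated cells, where OIP5, a centromere gene, rose by 1.21. FGD5-AS1 was flat, with group means of 2297, 2294, 2203 and 2270.4, and its log2 changes of 0.00 with TGFB and -0.01 with celastrol did not pass the test; its exons overlap those of NR2C2. NR2F1-AS1, against a nuclear receptor gene, rose with celastrol in TGFB-treated cells by 0.69, and THUMPD3-AS1, against a transfer RNA methyltransferase gene, by 0.55. NUTM2A-AS1 averaged 2358 with vehicle, 2611 with TGFB, 1707 with celastrol and 1751 with both and fell by 0.58; NUTM2A has near-identical copies, so reads of that family may be split among them. The call of OIP5 with celastrol added was lost without TGFB replicate 2 and without both-agent replicate 1 (adjusted p from 0.0504 to 0.067). FGD5-AS1 with TGFB passed the threshold with common totals (adjusted p = 0.039).

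TGFB alone lowered more antisense genes than it raised. Of 576 tested, 17 rose and 93 fell at an adjusted p under 0.05 (limma, Benjamini-Hochberg over all 22866 genes tested), which is 2.95 and 16.1%, while of all genes tested 12.8% rose and 10.6% fell. The median log2 change was -0.31 over the antisense genes and 0.05 over the partners, of which 126 rose and 90 fell of 551. Among antisense genes with a mean of at least 50 normalized reads, 10 rose and 62 fell of 221. The counts were 2704 and 1842 of 14739 among all genes with such a mean and 91 and 150 of 965 other lncRNA genes. Within a mean of 50 to 500, 10 antisense genes rose and 55 fell of 198. In that range 522 rose and 977 fell of 6608 among all genes, and 66 and 132 of 848 other lncRNA genes, so falls outnumbered rises there too. Of all 3873 other lncRNA genes tested, 166 rose and 409 fell. With each library brought to a common total, 13 rose and 166 fell; with the fit confined to the vehicle and TGFB libraries, 3 rose and 21 fell; and without vehicle replicate 1, 11 rose and 55 fell. Of the genes named below, the fit with only those 4 libraries ended the TGFB calls of ACTA2-AS1, CDKN2B, CDKN2B-AS1, EHMT2, FRMD6-AS1, GATA2-AS1, IRAG1, KTN1, KTN1-AS1, LMCD1, MAMDC2-AS1, MAP3K4-AS1, NR2F2-AS1, PLS3-AS1, PXN-AS1, RPARP-AS1, SBF2-AS1, SEPSECS, SEPSECS-AS1, SH3RF3, ZNF295-AS1, ZNF436, ZNF436-AS1, ZNF674 and ZNF674-AS1, with adjusted p from 0.051 to 0.26.

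MCM3AP-AS1 showed the largest fall among the genes the naming rule allows. It read 209 and 212 normalized reads with vehicle, 41.0 and 57.8 with TGFB, 288 and 309 with celastrol and 296 and 302 with both agents. Both TGFB libraries were below all others, while the values with celastrol and with both agents overlapped. The log2 change with TGFB was -2.09 (SE 0.17, adjusted p = 6.87e-05), and with celastrol added it was 2.59 (SE 0.17, adjusted p = 4.80e-06). MCM3AP, which encodes a factor of messenger RNA export, read 3757 and 3692 with vehicle, 4739.5 and 4934 with TGFB, 3186 and 2985 with celastrol and 3015 and 3069 with both agents. Its TGFB libraries were the highest, so the pair moved in opposite directions, with 0.38 for MCM3AP with TGFB and -0.67 with celastrol added. The log2 ratio of antisense to partner changed by -2.47 (SE 0.17) with TGFB. The call of MCM3AP with TGFB was lost with common totals (adjusted p = 0.082).

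SOCS2-AS1 fell together with SOCS2, a gene whose product restrains cytokine and growth hormone receptor signalling. SOCS2-AS1 read 111 and 93.0 normalized reads with vehicle, 25.4 and 27.0 with TGFB, 107 and 114 with celastrol and 113 and 107 with both agents, and SOCS2 read 1006 and 984 with vehicle, 127 and 206 with TGFB, 924 and 794 with celastrol and 869 and 861 with both agents. In both genes the TGFB libraries were apart from and below the 6 others, while the 3 other groups lay close together. With TGFB the log2 change was -1.92 (SE 0.19, adjusted p = 2.12e-04) for SOCS2-AS1 and -2.61 (SE 0.19, adjusted p = 3.93e-05) for SOCS2. Pairs of transcription factor genes fell the same way: TBX5-AS1 by 0.82 and TBX5, a limb and heart T-box gene, by 1.08; NR2F2-AS1 by 1.37 and the nuclear receptor gene NR2F2 by 0.67; GATA2-AS1 by 0.49 and GATA2 by 0.96; and ZNF436-AS1 by 1.05 and the zinc finger gene ZNF436 by 0.51. TBX5-AS1 averaged 1617 with vehicle, 917 with TGFB, 1432 with celastrol and 1474 with both, and NR2F2-AS1 506 with vehicle, 198 with TGFB, 463 with celastrol and 489 with both. The call of GATA2-AS1 with TGFB was lost without vehicle replicate 1 and without TGFB replicate 1 (adjusted p from 0.06 to 0.099).

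Other large falls with TGFB had partners with smaller changes or none that passed the test. SBF2-AS1, inside the gene of a myotubularin-related protein, read 575 and 530.2 normalized reads with vehicle and 230.2 and 155 with TGFB. It read 732 and 649 with celastrol and 714 and 579 with both agents. Its log2 change with TGFB was -1.54 (limma, SE 0.18, adjusted p = 5.23e-04), while SBF2 changed by -0.07, which did not pass the test. TTC28-AS1 averaged 199 with vehicle, 60 with TGFB, 366 with celastrol and 355 with both and changed by -1.71; its exons also overlap PITPNB, a phosphatidylinositol transfer protein gene with a change of 0.54. EIF1B-AS1 averaged 104 with vehicle, 30.8 with TGFB, 185 with celastrol and 193 with both and changed by -1.72, where the translation initiation gene EIF1B changed by 0.27, which did not pass the test, and MYRIP, whose exons EIF1B-AS1 overlaps, averaged 9.53 with vehicle and 0 with TGFB. SEPSECS-AS1, head to head with a selenocysteine synthesis gene, changed by -1.85 and SEPSECS by -0.59. TMCC1-AS1 changed by -1.46, ITGA9-AS1, against an integrin gene, by -1.46, and RPARP-AS1, which has no partner row, by -1.64. ACTA2-AS1, against the smooth muscle actin gene that marks myofibroblasts, read 47.5 and 79.8 normalized reads with vehicle, 19.8 and 24.6 with TGFB, 60.3 and 64.2 with celastrol and 41.4 and 64.9 with both agents. Its TGFB libraries were the lowest, with a change of -1.44 (SE 0.33, adjusted p = 0.015), whereas ACTA2 at 6 h had a change of 0.41 (SE 0.40, adjusted p = 0.52), which did not pass the test. With the replicate number as a block, that change of ACTA2 passed the threshold (limma, SE 0.11, adjusted p = 0.019). SBF2 with TGFB passed the threshold with common totals (adjusted p = 0.0032). EIF1B with TGFB passed the threshold without TGFB replicate 2 (adjusted p = 0.036). The call of SEPSECS with TGFB was lost without vehicle replicate 2 (adjusted p = 0.064). The call of ACTA2-AS1 with TGFB was lost without vehicle replicate 2 and without TGFB replicate 1 (adjusted p from 0.056 to 0.097).

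Few antisense genes rose with TGFB, and 8 met the naming rule. SH3RF3-AS1, head to head with the gene of a ubiquitin ligase scaffold, read 13.8 and 10.8 normalized reads with vehicle, 70.6 and 71.3 with TGFB, 126 and 88.4 with celastrol and 132 and 111 with both agents. The vehicle libraries were below the other 6, with no overlap. TGFB changed it by 2.45 (SE 0.26, adjusted p = 2.57e-04), SH3RF3 by 0.74, and celastrol without TGFB by 3.01. SLFNL1-AS1 had another pattern, with 316 and 292 normalized reads with vehicle, 1250.0 and 1554 with TGFB, 136 and 115 with celastrol and 151 and 124 with both agents. It was highest in both TGFB libraries and lowest in the 4 celastrol libraries, with changes of 2.19 (SE 0.15, adjusted p = 3.03e-05) for TGFB and -3.33 (SE 0.15, adjusted p = 8.92e-07) for celastrol added to TGFB. SLFNL1 itself stayed between group means of 12.1 and 19.9 and did not pass the test in either comparison (-0.77 and 0.34); the exons of SLFNL1-AS1 also overlap SCMH1, a Polycomb gene, with changes of 0.20, which did not pass the test, and -0.41. MSC-AS1 averaged 248 with vehicle, 752 with TGFB, 372 with celastrol and 345 with both and rose by 1.60 along with MSC, the musculin transcription factor gene, which rose by 2.47. MAP3K4-AS1, against a stress kinase gene, rose by 1.89, FRMD6-AS1 by 0.62, and FRMD6, a Hippo pathway gene, by 1.41. ZNF295-AS1, with no partner row, rose by 2.33; its exons overlap those of ZBTB21, the current symbol of ZNF295, on the opposite strand, which averaged 1618 with vehicle, 4056 with TGFB, 3369.6 with celastrol and 3405 with both and rose by 1.32. ZNF674-AS1 rose by 0.76 and MAMDC2-AS1 by 0.68. The call of FRMD6-AS1 with TGFB was lost without either vehicle library, without either TGFB library, with common totals and without a variance trend (adjusted p from 0.059 to 0.15). The call of MAMDC2-AS1 with TGFB was lost without either vehicle library, without TGFB replicate 1, without either celastrol library, with common totals and without a variance trend (adjusted p from 0.064 to 0.13).

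In pairs, TGFB calls were more often shared in direction than opposed. Of 519 pairs with both genes tested, 31 had both called in the same direction (5 higher, 26 lower) and 8 in opposite directions, which is 5.97 and 1.54%. Among 1352 pairs of another lncRNA gene and an overlapping protein coding gene on the opposite strand, 3.25% were called in the same direction and 2.51% in opposite directions. Without vehicle replicate 1 the pairs were 18 and 5, without vehicle replicate 2 they were 20 and 4, with common totals 65 and 9, and with only the compared libraries 5 and 1; without TGFB replicate 2, or with the replicate number as a block, more opposite pairs were called, 14 and 16. Besides MCM3AP, the opposite pairs with enough signal were PXN-AS1 (-1.43) and the focal adhesion scaffold gene PXN (0.86), KTN1-AS1 (-1.13) and KTN1 (0.50), and PLS3-AS1 (-1.97) and the actin bundling gene PLS3 (0.44). CDKN2B-AS1, known as ANRIL, changed by -0.71 from means of 273 to 168 and CDKN2B, a cell cycle inhibitor gene, by 0.71. In 2 pairs the antisense gene rose and the partner fell: ZNF674-AS1 with ZNF674 (-0.49), and IRAG1-AS1, which was at 0 with vehicle and averaged 1.94 with TGFB, below the level of 3 reads, with IRAG1 (-1.0). The call of PXN-AS1 with TGFB was lost without vehicle replicate 1 (adjusted p = 0.063). The call of PLS3-AS1 with TGFB was lost without either vehicle library, without TGFB replicate 2, without either celastrol library, without either both-agent library, without a variance trend and with a pseudocount of 0.5 (adjusted p from 0.053 to 0.21). The call of CDKN2B-AS1 with TGFB was lost without vehicle replicate 2 (adjusted p = 0.062). The call of ZNF674 with TGFB was lost without either vehicle library, without TGFB replicate 1, without either celastrol library, without either both-agent library and without a variance trend (adjusted p from 0.059 to 0.18).

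**Figure D2:**
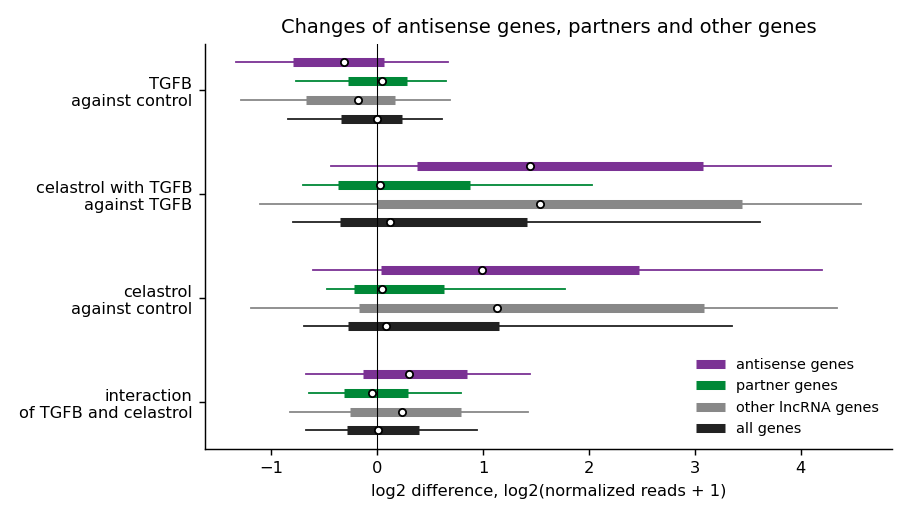
Distribution of log2 differences in 4 comparisons for the 576 antisense genes tested, their 551 partners, 3873 other lncRNA genes and all 22866 genes; thick bars span the 25th to 75th percentile of the genes, thin lines the 10th to 90th percentile, and circles are medians. The median of the antisense genes lies below 0 with TGFB and above 0 with celastrol, near that of the other lncRNA genes. The median of the partners is near 0. Of the antisense genes tested, 205 passed the filter only through celastrol libraries.

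With celastrol added to TGFB, most of the antisense genes tested and most of the other lncRNA genes tested were called higher. Of 576, 371 rose and 39 fell, which is 64.4 and 6.77%, while 63.4% of all genes tested were called, 37.5% higher and 25.9% lower. The median log2 change was 1.45 over the antisense genes, 1.54 over 3873 other lncRNA genes, of which 2277 rose and 500 fell, and 0.03 over the partners, of which 201 rose and 178 fell of 551. Because 205 of the tested antisense genes passed the filter only through celastrol libraries, these counts are a description and not support for a general rise. Among the 221 with a mean of at least 50, which can also be reached through celastrol libraries, 136 rose and 31 fell. The counts were 4041 and 5281 of all 14739 genes with such a mean and 477 and 226 of 965 other lncRNA genes. Within a mean of 50 to 500, 125 antisense genes rose and 24 fell of 198. In that range 2201 rose and 1541 fell of 6608 among all genes, and 439 and 169 of 848 other lncRNA genes, so rises outnumbered falls there too. With a filter of 50 normalized reads in 2 libraries, 194 antisense genes rose and 35 fell.

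Most of the largest rises with celastrol added were of genes at or near 0 with TGFB. CAVIN2-AS1 (chromosome 2, 191846539 to 192044525, plus strand) overlaps the first exon of CAVIN2, which encodes a coat protein of caveolae. CAVIN2-AS1 read 1.25 and 1.8 normalized reads with vehicle, 0 in both libraries with TGFB, 520.2 and 649 with celastrol and 555 and 592 with both agents. All 4 celastrol libraries stood far above all 4 others. Against the limit of 3 reads in each TGFB library, the level with both agents was at least 145-fold higher (adjusted p = 1.63e-07). CAVIN2 read 198 and 214 with vehicle, 39.5 and 30.7 with TGFB, 233 and 199.8 with celastrol and 208 and 232 with both agents. Here only the TGFB libraries were low: CAVIN2 changed by -2.53 (SE 0.18, adjusted p = 2.93e-05) with TGFB, by 2.62 (SE 0.18, adjusted p = 5.25e-06) with celastrol added, and by 0.07 with celastrol alone, which did not pass the test.

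MTUS2-AS1, against a microtubule-associated gene, was at 0 in both TGFB libraries and read 278 and 259 with both agents, at least 67.8-fold higher; MTUS2 averaged 1.32 and 35.8. EHMT2-AS1 was at 0 in all 4 libraries without celastrol and read 165 and 163 with celastrol and 222 and 176 with both, at least 59.1-fold and at least 50.2-fold higher. EHMT2, the gene of the histone methyltransferase G9a, changed by -0.83 with TGFB and 0.60 with celastrol added. VAC14-AS1 read 129 and 111 with both agents against 0 with TGFB, at least 30.3-fold higher, while VAC14, a scaffold gene of phosphoinositide synthesis, fell by 0.58. LHFPL3-AS1 and FAM181A-AS1, with no partner row, read 108 and 77.0 and 138 and 129 with both agents and averaged 0 and 0.615 with TGFB. GRTP1-AS1 rose to 86.9 and 58.3, at least 18.3-fold, and THRB-AS1, against a thyroid hormone receptor gene, to 66.6 and 71.5, at least 17.4-fold, with THRB up by 2.69.

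HMGA2-AS1 and HMGA2, a chromatin architecture gene, moved in opposite directions. HMGA2-AS1 read 12.5 and 18 normalized reads with vehicle, 0 and 11.1 with TGFB, 222 and 264 with celastrol and 292 and 233 with both agents, and HMGA2 read 5407 and 5239 with vehicle, 12894 and 12943 with TGFB, 3419.6 and 3540.0 with celastrol and 3633 and 3748 with both agents. The antisense gene was high in the 4 celastrol libraries, and 1 TGFB library held none of it; the partner was highest in both TGFB libraries and lowest in the celastrol libraries. With celastrol added to TGFB the log2 change was 6.24 (SE 0.92, adjusted p = 3.94e-04) for HMGA2-AS1 and -1.81 (SE 0.05, adjusted p = 1.30e-07) for HMGA2. LMCD1-AS1 read 16.3 and 25.8 normalized reads with vehicle, 21.2 and 16.0 with TGFB, 137 and 139 with celastrol and 149 and 138 with both agents, and rose by 2.89 (SE 0.28, adjusted p = 3.48e-05) with celastrol added. LMCD1, a LIM domain gene, averaged 950.5 with vehicle, 4179.8 with TGFB, 891 with celastrol and 969.9 with both, rose by 2.17 with TGFB and fell by 2.12 with celastrol added. HIF1A-AS3 rose by 6.26 and HIF1A-AS1 by 3.18, while HIF1A, the oxygen-regulated transcription factor gene that both lie against, rose by 1.02 with TGFB and fell by 0.63 with celastrol added. L3MBTL2-AS1 rose by 5.64 and the Polycomb-family gene L3MBTL2 fell by 0.90; POLH-AS1 read 56.1 and 45.1 against 0 with TGFB, and POLH, a translesion polymerase gene, fell by 0.34. The call of POLH with celastrol added was lost with common totals (adjusted p = 0.098).

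The reverse, an antisense gene lower and its partner higher with celastrol added, was called in 10 pairs. MMP25-AS1 fell by 0.71 while MMP25, a membrane-bound matrix metalloprotease gene, went from 0 and 2.46 normalized reads with TGFB to 292 and 278 with both, and NUTM2B-AS1 fell by 0.91 while NUTM2B, which has near-identical copies, rose by 6.06. TMEM161B-AS1 showed the largest fall apart from SLFNL1-AS1. It read 1863 and 1844 normalized reads with vehicle, 1586 and 1558 with TGFB, 437 and 465 with celastrol and 394 and 410.5 with both agents, lowest in the 4 celastrol libraries with no overlap, and changed by -1.96 (SE 0.07, adjusted p = 2.55e-07). TMEM161B, a membrane protein gene that overlaps it, followed with -1.63 (SE 0.09, adjusted p = 2.10e-06). ZNF790-AS1 changed by -1.67, FRMD6-AS1 by -1.26 with FRMD6 at -1.51, ZFHX2-AS1 by -1.21, ZSCAN16-AS1 by -1.18, and MYLK-AS1, against the myosin light chain kinase gene, by -1.16. SLC16A1-AS1, against a lactate transporter gene, changed by -1.16, and MIF-AS1, against a cytokine gene, by -1.13. The call of MMP25-AS1 with celastrol added was lost without either TGFB library, without either both-agent library, with common totals and with median centring (adjusted p from 0.055 to 0.15).

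Some pairs that rose together with celastrol had starts close to each other. RASAL2-AS1, whose promoter window overlaps that of RASAL2, read 41.3 and 53.4 normalized reads with vehicle, 52.3 and 35.6 with TGFB, 291 and 338 with celastrol and 289.5 and 328 with both agents, and RASAL2, a Ras GTPase-activating gene, read 2386 and 2395 with vehicle, 2866 and 3062 with TGFB, 5900.1 and 6513 with celastrol and 6284 and 6330.2 with both agents. Both genes were higher in all 4 celastrol libraries than in any other, with 2.81 (SE 0.22, adjusted p = 1.32e-05) and 1.09 (SE 0.06, adjusted p = 2.60e-06) in TGFB-treated cells. ZNF436-AS1 read 57.5 and 64.8 normalized reads with vehicle, 32.5 and 25.8 with TGFB, 124 and 140.5 with celastrol and 136 and 141 with both agents; its change was 2.22, and that of ZNF436 was 1.56. Further pairs of transcription factor genes, chosen after their values were seen, were ID2-AS1 (3.07) with ID2 (2.24), CEBPB-AS1 (3.22) with CEBPB (1.27) and BHLHE40-AS1 (2.31) with BHLHE40 (1.14). BHLHE40-AS1 averaged 13.1 with vehicle, 23.4 with TGFB, 99.6 with celastrol and 116 with both, and BHLHE40 589.6 with vehicle, 4454 with TGFB, 7449 with celastrol and 9795 with both. Their order was celastrol with TGFB highest and vehicle lowest in both genes, although the antisense change with TGFB alone did not pass the test.

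**Figure D3:**
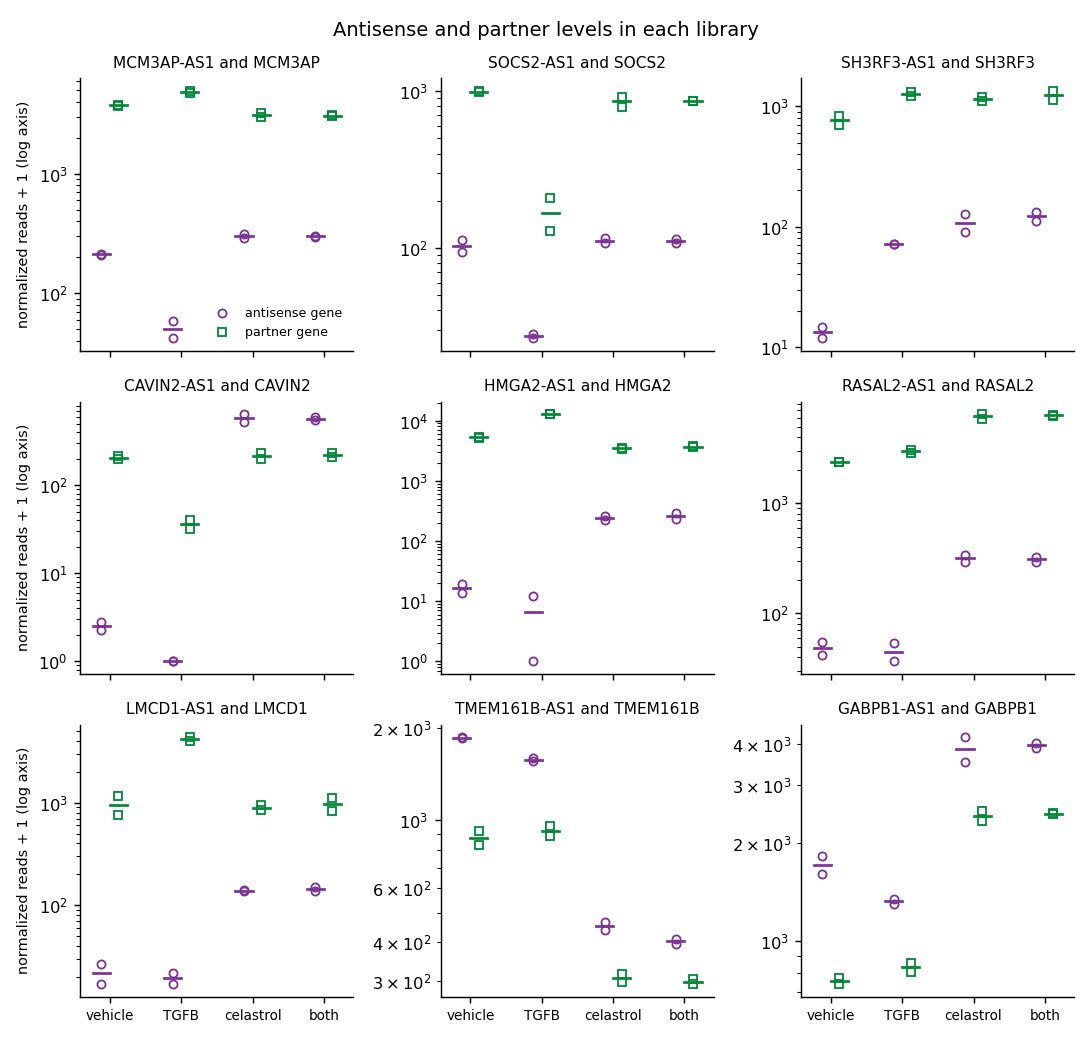
Normalized reads plus 1 on a log axis for 9 antisense genes (circles) and their partners (squares) in each library, with lines at the group means. MCM3AP-AS1 dips with TGFB where its partner peaks, CAVIN2-AS1 and HMGA2-AS1 are far lower in each library without celastrol than in any with it, and TMEM161B-AS1 falls with its partner.

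Counted over pairs, celastrol with TGFB gave calls in both directions. Of 519 pairs, 154 were called in the same direction, 139 of them higher, and 107 in opposite directions, 97 with the antisense gene higher, which is 29.7 and 20.6%. For the 1352 pairs of other lncRNA genes these shares were 25.9 and 23.8%. Leaving out replicate 1 or replicate 2 of the group with both agents gave 71 and 68 opposite pairs, and a filter of 50 normalized reads in 2 libraries gave 81 same and 57 opposite. The antisense gene alone was called in 104 pairs, the partner alone in 100, and neither in 54.

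In the comparisons listed here, changes of antisense gene and partner were more closely correlated across pairs with close starts than across the others. Across the 218 tested pairs with starts within 2000 bases, Pearson's r between the log2 changes was 0.34 for TGFB, 0.40 for celastrol with TGFB, 0.38 for celastrol alone and 0.31 for the interaction; across the other 301 pairs it was 0.16, 0.05, -0.02 and 0.16. These are descriptions across pairs in the same 8 libraries, with overlapping genes that may share reads, and pairs are not independent replicates. In each of these comparisons r was higher where exons overlapped than where they did not: within 2000 bases 0.37, 0.42, 0.39 and 0.33 in 143 pairs with overlap and 0.30, 0.32, 0.36 and 0.26 in 69 without. Farther apart, r was 0.23, 0.07, 0.04 and 0.21 in 204 pairs with overlap and 0.14, -0.08, -0.23 and 0.07 in 78 without. Among the close pairs with celastrol and TGFB, 57 moved in the same direction and 41 in opposite directions (26.1 and 18.8%), and among the others 97 and 66 (32.2 and 21.9%). All 41 opposite calls of the close pairs had the antisense gene higher and the partner lower. In the close pairs 139 antisense genes were called higher and only 8 lower, and 65 partners higher and 83 lower. The 40 head to head pairs, which are close but do not overlap, gave 5 same and 9 opposite calls, a share of 12.5 and 22.5%. In these pairs 21 antisense genes were called higher and 2 lower, and 6 partners higher and 19 lower. Whether the 5 and 9 differ from what these separate counts would give was not tested. Across the 40 pairs, r was 0.49 for TGFB and 0.42 for the interaction. It was 0.20 for celastrol with TGFB and 0.24 for celastrol alone, below the values for all close pairs.

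**Figure D4:**
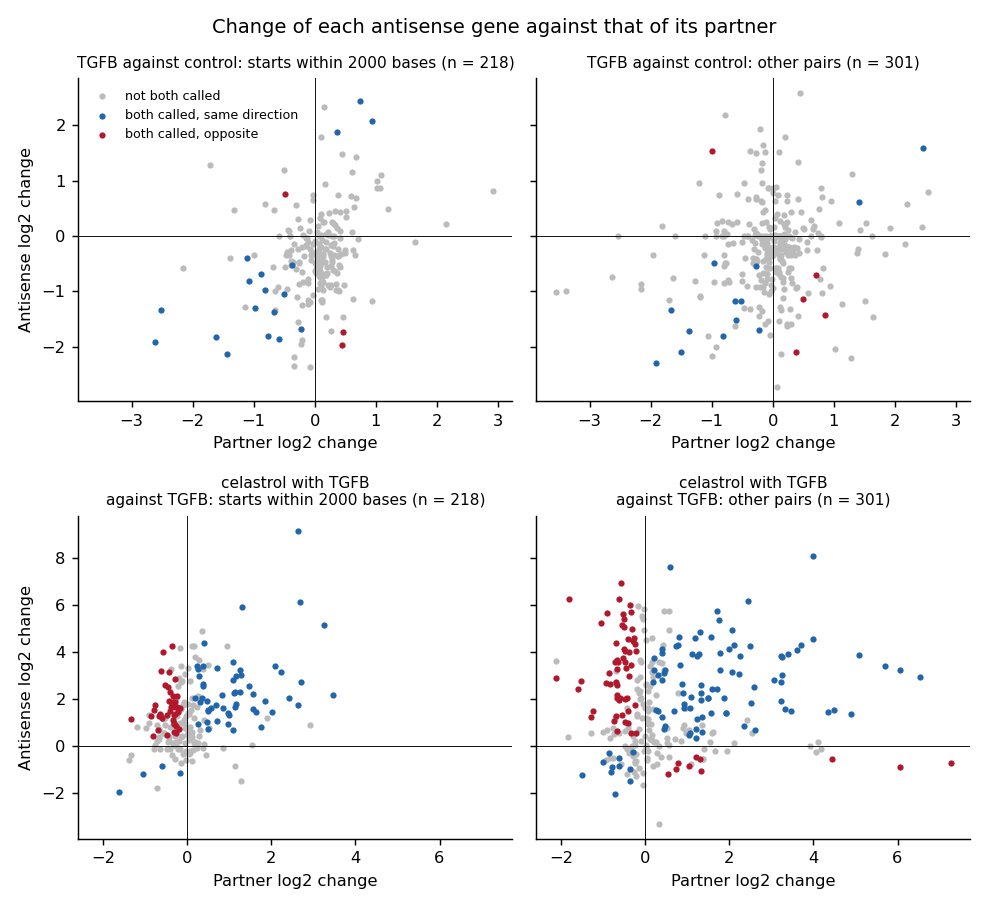
Log2 change of each antisense gene (vertical axis) against that of its partner (horizontal axis) for TGFB against vehicle (top) and celastrol with TGFB against TGFB (bottom), split into 218 pairs with starts within 2000 bases (left) and 301 others (right); colours show pairs with both genes called. In both lower panels most antisense genes were called higher, 139 of 218 on the left and 190 of 301 on the right. In the lower right panel r is 0.05, against 0.40 in the lower left panel.

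Several antisense genes described here overlap exons of a gene other than the partner. Where that gene lies on the opposite strand, reads of both cannot be told apart if the counting used no strand. ARMH4, TMEM255B, THTPA and ZNF540 lie on the strand of the antisense gene, and for them the use of strand would not separate the reads. RAB11B-AS1, which is described below as nearly level, overlaps ANGPTL4, the gene of a lipoprotein lipase inhibitor, which averaged 4.95 with vehicle, 269 with TGFB, 292 with celastrol and 322 with both and rose with TGFB by 5.64. SLC7A11-AS1 overlaps LINC00616, which averaged 2.42 with vehicle, 0 with TGFB, 544 with celastrol and 582 with both. With celastrol added to TGFB, HOXC10, which HOXC-AS3 overlaps, had a change of 0.83, ARMH4, on the strand of PSMA3-AS1, one of 0.99, and NR2C2, overlapped by FGD5-AS1, one of -0.27. With TGFB, the log2 change was 0.07 for CDKN2A, overlapped by CDKN2B-AS1, -0.54 for TRPA1, overlapped by MSC-AS1, -0.24 for HEBP1, overlapped by GPRC5D-AS1, and -0.24 for TMEM255B, on the strand of GAS6-AS1, and none of these passed the test. With celastrol added, THTPA and AP1G2, which ZFHX2-AS1 overlaps, had changes of -0.16 and 0.05, NANP, overlapped by ZNF337-AS1, one of -0.22, and ZNF540, on the strand of ZNF571-AS1, one of 0.60, none of which passed the test; LINC01152, overlapped by SOX9-AS1, was not tested. Overlapping genes that carry only a clone name are not described. The call of NR2C2 with celastrol added was lost with common totals (adjusted p = 0.14). HEBP1 with TGFB passed the threshold with common totals (adjusted p = 0.0051). THTPA with celastrol added passed the threshold without TGFB replicate 1 (adjusted p = 0.023). NANP with celastrol added passed the threshold without TGFB replicate 2 (adjusted p = 0.043).

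With celastrol and no TGFB, more antisense genes were called higher than lower, and here too 205 of those tested passed the filter only through celastrol libraries, so the counts are a description. Of 576, 301 rose and 52 fell (52.3 and 9.03%), while 33.8% of all genes tested rose and 21.3% fell; the median log2 change was 0.99, and 1.13 over other lncRNA genes. Of the partners, 180 rose and 118 fell. Among pairs, 115 moved in the same direction and 61 in opposite directions, 22.2 and 11.8%, against 21.5 and 16.1% among the pairs of other lncRNA genes. Opposite pairs numbered 34 without vehicle replicate 1, 38 and 36 without celastrol replicate 1 or 2, and 33 with a filter of 50 normalized reads; same-direction pairs numbered 74 without celastrol replicate 1 and 68 with that filter, under which 156 antisense genes rose and 49 fell. The largest fall that the naming rule allows was of IRF1-AS1, against the gene of interferon regulatory factor 1, which read 162 and 181 normalized reads with vehicle, 86.8 and 94.7 with TGFB, 42.1 and 29.1 with celastrol and 38.1 and 63.5 with both agents. Both vehicle libraries were above both celastrol libraries. The change was -2.26 (SE 0.29, adjusted p = 2.24e-04), whereas IRF1 rose by 0.62 from 391 and 427 to 676 and 583. TMEM161B-AS1 changed by -2.04, SEPSECS-AS1 by -1.54, PTPRG-AS1, against a receptor phosphatase gene, by -1.45 and ZNF790-AS1 by -1.37. The largest rises were of CAVIN2-AS1, EHMT2-AS1, MTUS2-AS1, FAM181A-AS1 and LHFPL3-AS1; FAM181A-AS1 was at 0 with vehicle and read 142 and 126, at least 48.3-fold higher. Opposite pairs included RUVBL1-AS1 (4.30) with RUVBL1, a chromatin remodelling helicase gene (-0.39), PITRM1-AS1 (3.59) with PITRM1, a mitochondrial protease gene (-0.51), ITGA9-AS1 (-0.59) with ITGA9 (4.10), and IRAG1-AS1, which was at 0 with vehicle and read 51.8 and 25.4, with IRAG1 (-0.83). The call of ITGA9-AS1 with celastrol alone was lost without vehicle replicate 2 and without celastrol replicate 2 (adjusted p from 0.1 to 0.12).

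In the presence of celastrol, TGFB left no called change in the antisense genes. TGFB with celastrol against celastrol gave 0 calls of 576 by limma, where 0.00875% of all genes tested were called (0.00437% higher and 0.00437% lower), and 10 antisense genes (1.74%) had an unadjusted p under 0.05, against 3.80% of all genes. The count was 0 in each of the other settings run as well. The test of whether the celastrol change depended on TGFB, the interaction, called 38 antisense genes higher and 6 lower (6.6 and 1.04%), where 4.36% of all genes were higher and 6.89% lower; partners were 44 and 81. Higher means that the change with celastrol was more positive in TGFB-treated cells. This count depended on single libraries: it was 44 in all, 27 and 28 without vehicle replicate 1 or 2, 24 and 15 without celastrol replicate 1 or 2, 19 and 18 without replicate 1 or 2 of the group with both agents, and 71 with common totals. The interaction was 2.09 (SE 0.24, adjusted p = 0.0011) for MCM3AP-AS1, 1.91 for SOCS2-AS1, 2.55 for CAVIN2, and -2.06 for SLFNL1-AS1. GPRC5D-AS1, with no partner row, averaged 47.2 with vehicle, 8.97 with TGFB, 89.2 with celastrol and 104 with both and had an interaction of 2.57; GAS6-AS1, against the gene of a TAM receptor ligand, averaged 25.3 with vehicle, 6.7 with TGFB, 45.3 with celastrol and 72.7 with both with 2.48; SEPSECS-AS1 had 2.29 and H1-10-AS1, against a linker histone gene, 2.34. Those lower were ZNF295-AS1 (-2.52), SH3RF3-AS1 (-2.25), MSC-AS1 (-1.70), and MAP3K4-AS1 (-1.46), all of which rose with TGFB alone and with celastrol alone; ZBTB21, which ZNF295-AS1 overlaps, had -1.31. The comparisons share libraries (TGFB libraries enter both TGFB against vehicle and celastrol with TGFB), so their values are given side by side and not as independent results; 10 pairs had same-direction and 2 opposite interaction calls, the latter PXN-AS1 (1.62) with PXN (-0.89) and MCM3AP-AS1 with MCM3AP (-0.40). These were 1.93 and 0.385% of 519 pairs, against 1.04 and 0.37% among the pairs of other lncRNA genes. The call of GPRC5D-AS1 in the interaction was lost without either celastrol library and without either both-agent library (adjusted p from 0.054 to 0.071). The call of GAS6-AS1 in the interaction was lost without vehicle replicate 2, without celastrol replicate 2 and without either both-agent library (adjusted p from 0.053 to 0.081). The call of SEPSECS-AS1 in the interaction was lost without vehicle replicate 2, without celastrol replicate 2 and without either both-agent library (adjusted p from 0.0502 to 0.081). The call of H1-10-AS1 in the interaction was lost without either vehicle library, without either celastrol library, without either both-agent library and without a variance trend (adjusted p from 0.057 to 0.12). The call of MAP3K4-AS1 in the interaction was lost without either vehicle library, without TGFB replicate 1, without either celastrol library, without either both-agent library, with common totals and without a variance trend (adjusted p from 0.064 to 0.16). The call of PXN-AS1 in the interaction was lost without either vehicle library, without TGFB replicate 2, without either celastrol library, without either both-agent library and without a variance trend (adjusted p from 0.052 to 0.14). The call of MCM3AP in the interaction was lost without either vehicle library, without celastrol replicate 1, without either both-agent library, with common totals and without a variance trend (adjusted p from 0.052 to 0.23).

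The antisense genes were then read by the role of the partner, beginning with matrix and TGFB pathway genes. Of 12 tested antisense genes in that list, 1 rose and 2 fell with TGFB, and 9 rose and 1 fell with celastrol added. The medians were 0.27 and 1.99, beside 0.00 and 0.12 over all genes tested. Of all antisense genes, 2.95% rose and 16.1% fell with TGFB, and 64.4% rose and 6.77% fell with celastrol added. Of all genes tested, 12.8% rose and 10.6% fell with TGFB, and 37.5% rose and 25.9% fell with celastrol added. Of the 13 partners in that list, 5 rose and 1 fell with TGFB, and 4 rose and 7 fell with celastrol added. Among all 551 partners tested, these shares were 22.9 and 16.3% with TGFB and 36.5 and 32.3% with celastrol added. HAS2-AS1, against the hyaluronan synthase gene HAS2, read 12.5 and 18.6 normalized reads with vehicle, 24.0 and 30.7 with TGFB, 115 and 155 with celastrol and 130.4 and 169 with both agents, and HAS2 read 612 and 915 with vehicle, 3654 and 5285 with TGFB, 1192 and 1369 with celastrol and 1344 and 1556 with both agents. The antisense gene was highest in the 4 celastrol libraries and the partner in the TGFB libraries. With celastrol added to TGFB, HAS2-AS1 changed by 2.41 (SE 0.29, adjusted p = 1.30e-04) and HAS2 by -1.60 (SE 0.21, adjusted p = 2.08e-04). TGFB2-AS1 averaged 1.2 with vehicle, 2.82 with TGFB, 15.7 with celastrol and 16.6 with both and changed with TGFB by 0.48, which did not pass the test, where the ligand gene TGFB2 rose by 1.21. LOXL1-AS1, against a collagen and elastin cross-linking enzyme gene, averaged 336 with vehicle, 433 with TGFB, 268 with celastrol and 239 with both and fell by 0.85 with celastrol added, as did LOXL1, by 0.61. INHBA-AS1, against the activin A subunit gene, averaged 5.23 with vehicle, 5.99 with TGFB, 17.9 with celastrol and 32.2 with both, and INHBA 1767 with vehicle, 9586 with TGFB, 7625 with celastrol and 8615 with both. THBS4-AS1, against a thrombospondin gene, rose by 5.35 with celastrol added, and ADAMTS9-AS2 by 1.59 with the matrix protease gene ADAMTS9 at 3.31. ELN-AS1 reached 9.11 and 11.0 at most and was not tested, while elastin (ELN) averaged 1181 with vehicle, 10949 with TGFB, 648 with celastrol and 529 with both.

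Antisense genes of cytoskeletal partners were called higher with celastrol added at a share near that of all antisense genes. Of 10 tested, 7 rose and 1 fell with celastrol added to TGFB (median 1.29), beside 64.4 and 6.77% of all antisense genes and 37.5 and 25.9% of all genes tested. Of their 10 partners, 3 rose and 3 fell (median -0.04). With TGFB alone, 0 of the 10 antisense genes rose and 2 fell. That stood beside 2.95 and 16.1% of all antisense genes and 12.8 and 10.6% of all genes tested. NEXN-AS1, against the actin-binding nexilin gene, read 82.5 and 64.2 normalized reads with vehicle, 86.2 and 94.6 with TGFB, 305 and 408 with celastrol and 364 and 386 with both agents, with the 4 celastrol libraries apart from the rest. It changed by 2.04 (SE 0.18, adjusted p = 2.54e-05), and NEXN averaged 1843 with vehicle, 1526 with TGFB, 1712 with celastrol and 1961 with both. VIM-AS1, against the vimentin gene, averaged 47.0 with vehicle, 35.0 with TGFB, 90.8 with celastrol and 86.3 with both and rose by 1.27, while VIM changed by -0.04, which did not pass the test. ACTN1-AS1 averaged 6.83 with vehicle, 10.8 with TGFB, 22.2 with celastrol and 25.5 with both; its change of 1.32 with celastrol added did not pass the test, and the alpha-actinin gene ACTN1 fell by 0.91. ACTN1-AS1 with celastrol added passed the threshold without either vehicle library and without TGFB replicate 2 (adjusted p from 0.041 to 0.044).

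Cytokine, growth factor and receptor partners held several pairs that rose together. In this list 5 of 6 tested antisense genes rose and 0 fell with celastrol added, beside 64.4 and 6.77% of all antisense genes and 37.5 and 25.9% of all genes tested, and 4 of 6 partners rose and 2 fell. GDNF-AS1 read 22.5 and 36.7 normalized reads with vehicle, 46.6 and 40.6 with TGFB, 205 and 193 with celastrol and 212 and 211 with both agents, and GDNF, a neurotrophic factor gene, read 93.8 and 101 with vehicle, 422 and 487 with TGFB, 615 and 821 with celastrol and 806 and 899 with both agents. Both were higher with celastrol than with vehicle, by 2.75 (SE 0.24, adjusted p = 2.99e-05) and 2.86 (SE 0.15, adjusted p = 1.92e-06); with TGFB alone GDNF rose by 2.21, and GDNF-AS1 changed by 0.58, which did not pass the test. IL12A-AS1 (3.01) and IL12A, a subunit gene of interleukin 12 (3.25), and IL21R-AS1 (3.93) and IL21R, a cytokine receptor gene (1.77), rose together with celastrol added, from antisense means of 4.67 and 1.32. GDNF-AS1 with TGFB passed the threshold without vehicle replicate 2 (adjusted p = 0.031).

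Transcription factor partners made up the largest list. Of 31 tested antisense genes, 2 rose and 4 fell with TGFB, and 22 rose and 2 fell with celastrol added (medians -0.21 and 1.32). The shares with TGFB stood beside 2.95 and 16.1% of all antisense genes and 12.8 and 10.6% of all genes tested, and those with celastrol added beside 64.4 and 6.77% of all antisense genes and 37.5 and 25.9% of all genes tested. Of their 28 partners, 6 rose and 9 fell with TGFB, and 17 rose and 7 fell with celastrol added (medians 0.03 and 1.02). ZEB1-AS1, against the gene of a repressor linked to mesenchymal identity, read 223 and 198 normalized reads with vehicle, 186 and 222 with TGFB, 336 and 322 with celastrol and 365 and 317 with both agents. It was higher in the 4 celastrol libraries than in the other 4, with -0.04 for TGFB, which did not pass the test, and 0.74 (SE 0.13, adjusted p = 0.0013) for celastrol added; ZEB1 rose by 0.70 with TGFB. ZEB2-AS1 averaged 0.6 with vehicle, 1.94 with TGFB, 45.3 with celastrol and 42.8 with both, and ZEB2 rose by 1.11. NFIA-AS2 (4.28) and NFIA (2.11), and SOX9-AS1 (3.91) and SOX9 (1.29) rose together, and MEIS1-AS2 rose by 2.05 where MEIS1 fell by 0.44. Zinc finger pairs were mixed: ZNF337-AS1 fell by 0.70 and ZNF337 by 0.99, while ZNF571-AS1 (0.01) did not pass the test. PAX8-AS1 (0.14), against a paired-box gene, did not pass it either. The homeobox cluster names HOXA, HOXB and HOXC are not single genes, so HOXA-AS2, HOXB-AS1 and HOXC-AS3 have no partner row; HOXC-AS3 averaged 26.4 with vehicle, 27.1 with TGFB, 42.7 with celastrol and 48.8 with both. The call of ZNF337-AS1 with celastrol added was lost without both-agent replicate 2 (adjusted p = 0.097). PAX8-AS1 with celastrol added passed the threshold with common totals (adjusted p = 0.012).

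Antisense genes of stress and protein turnover partners were followed because celastrol is known to induce the heat shock response. With celastrol added to TGFB 7 of 11 tested rose and 2 fell (median 1.42), beside 64.4 and 6.77% of all antisense genes and 37.5 and 25.9% of all genes tested, as did 5 and 3 of 12 partners (median 0.11). DDIT4-AS1 was at 0 in all 4 libraries without celastrol and read 29.4 and 36.3 with celastrol and 28.0 and 31.9 with both, at least 11.8-fold and at least 7.57-fold higher. DDIT4, a stress-induced inhibitor of mTOR signalling, read 508 and 539.8 with vehicle, 503 and 580.1 with TGFB, 2509 and 2328 with celastrol and 2360.4 and 2167 with both agents, with the celastrol libraries apart from the others and a change of 2.06 (SE 0.09, adjusted p = 6.85e-07). SLC7A11-AS1 averaged 0 with vehicle, 0.706 with TGFB, 28.9 with celastrol and 38.0 with both, with the cystine transporter gene SLC7A11 up by 0.80, and USP2-AS1 (1.80) rose with the deubiquitinase gene USP2 (2.52). PSMA3-AS1, against a proteasome subunit gene, averaged 1568 with vehicle, 1492 with TGFB, 1229 with celastrol and 1252 with both, PSMG3-AS1, against a proteasome assembly gene, rose by 0.91, and PSMD6-AS2 (-0.22) did not pass the test.

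Among the antisense genes without a partner row, 3 of 53 tested rose and 10 fell with TGFB, and 40 rose and 3 fell with celastrol added (medians -0.38 and 2.81). These stood beside 2.95 and 16.1% of all antisense genes and 12.8 and 10.6% of all genes tested with TGFB, and beside 64.4 and 6.77% of all antisense genes and 37.5 and 25.9% of all genes tested with celastrol added. EPHA1-AS1 was the highest of these named here with celastrol, with 10.0 and 9.6 normalized reads with vehicle, 4.24 and 9.83 with TGFB, 301 and 277 with celastrol and 329 and 336 with both agents, and rose by 5.47 (SE 0.33, adjusted p = 3.18e-06) with celastrol added. RAB11B-AS1 stayed between group means of 21.7 and 23.7, with log2 changes of 0.03 with TGFB and -0.01 with celastrol added that did not pass the test; its partner RAB11B encodes a GTPase of recycling endosomes.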

How the data were processed

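Total RNA was taken with TRIzol and made into libraries with a VAHTS Total RNA-seq kit, per the labels' protocols, in 8 libraries of 4 groups. For each gene the deposited table gives a normalized signal in every library. The submitters' processing notes name Partek 10.0.22, STAR 2.7.3a, DESeq2 and hg38, with no role stated, and neither the counting rule, the use of strand nor the annotation release is stated in the sources used here. Between 70.3 and 77.9% of a library's values were whole multiples of 1 step (tolerance 0.02 of a step), so the values were read as reads divided by a size factor, the depth was estimated from the step, and count models were not used.

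All tests ran on log2(value + 1), so changes of low genes are understated. Genes with 10 normalized reads in 2 libraries were kept (22866 of 24598). limma 3.58.1 in R 4.3.3 was fitted to all 8 libraries, with 1 mean per group, a variance trend and 4 residual degrees of freedom. Benjamini-Hochberg adjustment ran over all genes tested within each of 5 comparisons, two-sided, with a threshold of 0.05. An exact permutation test of 2 libraries against 2 cannot go below a p of 0.33 two-sided and was not used. The script was tested on simulated data first.

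Members and partner lists were chosen with earlier results of these data known. Antisense genes were named if called, with groups that did not overlap and a mean of at least 50 in the higher group: the 10 largest rises and falls for TGFB and for celastrol with TGFB, 5 for each other comparison, up to 10 opposite pairs per comparison by the difference of changes, the 8 most abundant, the genes of the partner lists, and a few fixed genes. Some genes that this rule allows are not reported here. Genes named beyond these were chosen after their values were seen. LIF-AS1 and COL4A2-AS1 were fixed by name and are not analysed here. Alternatives were the pseudocount, the filter, the scaling, the variance trend, the libraries fitted, a replicate block and each library left out. Level subsets and a split by pair position were added after seeing the data.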

Additional observations from a re-analysis of the deposited data

Results flagged for a closer look

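The change with celastrol differed between cells with and without TGFB by the test of that difference, limma's interaction, for 44 of 576 antisense genes and 125 of 551 partners (Benjamini-Hochberg over all genes tested, adjusted p under 0.05), where 11.3% of all genes tested were called. The 44 became 15 to 51 when single libraries were left out. In log2 units, the change with celastrol was more positive in TGFB-treated cells for GPRC5D-AS1 (2.57), CAVIN2 (2.55), GAS6-AS1 (2.48), H1-10-AS1 (2.34), SEPSECS-AS1 (2.29), MCM3AP-AS1 (2.09), SOCS2-AS1 (1.91) and PXN-AS1 (1.62). It was more negative for ZNF295-AS1 (-2.52), SH3RF3-AS1 (-2.25), SLFNL1-AS1 (-2.06), MSC-AS1 (-1.70), MAP3K4-AS1 (-1.46), ZBTB21 (-1.31), PXN (-0.89) and MCM3AP (-0.40). The interaction equals the TGFB change with celastrol minus that without it, and the TGFB change passed the test without celastrol in the antisense genes named here and in none of the 576 with it.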

How the results depend on the processing

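No named gene reversed its called direction under any alternative run. Over all pairs, same-direction calls with celastrol outnumbered opposite ones, but over the 40 head to head pairs they did not. There, celastrol with TGFB gave 5 same and 9 opposite calls, and celastrol alone gave 3 and 4. With TGFB, 21 antisense genes of these pairs were called higher and 2 lower, and 6 partners higher and 19 lower. For celastrol alone, 14 antisense genes were higher and 5 lower, and 5 partners higher and 14 lower. The cause of the shifts below was not tested. TGFB calls: antisense genes numbered 179 with common totals, 24 with only the compared libraries and 66 to 118 with each library left out, and were 32.6% of those with a mean of at least 50; partners numbered 80 with only the compared libraries and 138 without a variance trend; same-direction pairs numbered 65 with common totals, 5 with only the compared libraries and 18 to 29 with each library left out; opposite pairs numbered 1 with only the compared libraries, 4 to 14 with each library left out, and were 0% of the head to head pairs. Celastrol with TGFB, under the stricter filter, gave 229 antisense genes, 81 same-direction and 57 opposite pairs; leaving out each library gave 68 to 110 opposite pairs, and 12.5% of head to head pairs moved in the same direction. Celastrol alone, under that filter, gave 205 antisense genes, 68 same-direction and 33 opposite pairs; leaving out each library gave 74 to 125 and 34 to 68, and 7.5% of head to head pairs moved in the same direction. The interaction gave 71 antisense genes with common totals, 15 to 51 with each library left out and 15.8% of those with a mean of at least 50; 56 partners without a trend and 71 to 127 with each library left out; 16 same-direction pairs under the stricter filter, 27 with common totals, 5 to 13 with each library left out and 5.0% of head to head pairs; and 1 opposite pair with common totals, 1 without a trend, 0 to 5 with each library left out, and 0% both of head to head pairs and of pairs without exon overlap. Over the genes named and all alternatives, 3460 results stayed on their side of the threshold, 119 calls were lost and 12 were gained. Each result is 1 gene in 1 comparison under 1 alternative, and the 3460 include those not called in either fit. A group with 1 library left was assumed to vary like the others.

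With common totals the median of all genes shifted by -0.21 for TGFB, 0.16 for celastrol with TGFB and 0.22 for the interaction, and the stricter filter shifted it by -0.18 for celastrol with TGFB and -0.11 for celastrol alone. Deviations of libraries with the same replicate number were only weakly correlated (0.050 to 0.082), and every correlation was positive. Counting error of low genes can hide a shared deviation, so these values cannot decide whether the numbers pair libraries. With the number as a replicate block, opposite pairs numbered 16 with TGFB. In the interaction, 7 opposite and 16 same-direction pairs were called with that block. ACTA2 passed the threshold with TGFB under the block (limma, adjusted p = 0.019). Genes near 10 normalized reads lie close to the limit of 3 reads, so falls from them could not be measured at this depth.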
